A study of Homo sapiens with 16 samples.

Results

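The late response of HT1080 cells to cisplatin was examined by setting the 2 arrays taken after 12 h of exposure against the 2 arrays of control cells. HT1080 is a human fibrosarcoma line, and every array held total RNA of these cells grown in complete medium. The cisplatin cells received 25 µM of the drug for 12 h, while the controls carry no drug and no time in their labels. A probe was a member if its detection score, which runs from 0 to 1 and rises with the signal over background, was at least 0.99 on both control arrays or on both cisplatin 12 h arrays. This rule took 8594 of the 24350 probes named by GI sequence numbers. The probes carry no gene names and 0 of the GI numbers matched the reference table, so transcripts are given by their probe and the cell type label was not checked against marker genes. The other groups used were cisplatin at 25 µM for 3 and 6 h and A0, a thioxotriazole copper(II) complex, at 25 µM for 1, 3, 6 and 12 h, with 2 arrays each. The labels do not tell separate cultures from repeat measurements within a group, so the p-values here refer only to the spread between these arrays, which may be technical.

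Cisplatin is a platinum drug that enters cells, loses its chloride ligands and binds purine bases, forming crosslinks within and between DNA strands. The crosslinks stall DNA replication and block transcribing RNA polymerase, and cells respond with checkpoint signalling, nucleotide excision repair and p53 activation. When transcription is blocked, messages with a short lifetime are the first to be depleted, while messages of stressed cells can accumulate in the same period. The array measures the level of each message relative to the others. Because normalisation gives every array the same distribution of values, a change in the total amount of RNA per cell is not seen here, and in a bulk sample fewer cells of a type and less RNA per cell cannot be told apart.

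At 12 h of cisplatin, 960 members differed from control by limma's moderated test at a Benjamini-Hochberg adjusted p of 0.05, against 10.4% of the 9293 probes tested across the series. Of these, 392 were higher and 568 lower, where 4.25% and 6.16% of the tested probes were called in these directions. The members make up most of the tested probes, so their shares of 4.56% and 6.61% lie close to that background. An unadjusted p under 0.05 was reached by 2246 members, or 26.1%, and unchanged probes also reach it at a rate of 0.05. Its share over all tested probes is not given here. The control arrays have no stated time, and drug, handling and time in culture cannot be told apart in this comparison.

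Detection divided the members into 7211 seen on all 4 arrays, 298 seen on both control arrays and neither cisplatin 12 h array, and 118 seen the other way round. A further 755 were seen on both control arrays and 1 cisplatin array, and 212 on both cisplatin arrays and 1 control array. Among the 7211 probes measured in both groups, 317 were called higher and 328 lower. With the arrays centred on their 75th percentile in place of quantile normalisation these counts were 313 higher and 267 lower. The remaining fallers were 119 of the 298 lost probes and 121 of the 755 partly lost ones, while 52 of the 118 gained and 23 of the 212 partly gained probes were called higher. A probe that became a member through 1 group only tended to be higher there, so the rule favours the directions of these last classes. It does not fix them for the partly lost probes, of which 8 lay higher on both cisplatin arrays than on both control arrays.

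Most probes measured in both groups stayed close to their control level. Their median log2 difference (cisplatin 12 h minus control) was 0.0383, with an SD over probes of 0.501 and a 5th and 95th percentile of -0.80 and 0.79. Over all tested probes the median was -0.00133 and the SD 0.56. The control replicates of the 7211 probes differed from each other with an SD of 0.317 on the log2 scale, and the cisplatin 12 h replicates with an SD of 0.433. Fold changes formed from array pairs that share no array correlated across these probes at a Pearson r of 0.524 when the equal replicate numbers were paired, and of 0.593 in the other pairing. The Spearman values were 0.422 and 0.5. Probes are not independent replicates, and both estimates carry the error of single arrays.

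The arrays of the groups did not overlap for 4712 members, where this held for 53.3% of all tested probes. They comprised 2381 members that lay higher with cisplatin and 2331 that lay lower, against 27% and 26.3% in these directions. Every called member was among them. Separation of the 2 pairs of arrays was therefore much more common than a call, since a call also required the gap to be large against the spread that all groups share. With 2 arrays per group, unchanged probes often separate as well, so these counts do not tell how many transcripts changed.

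Among probes measured in both groups, risers and fallers moved by similar amounts. The median rise was 1.96-fold, with the middle 50% of risers between 1.79-fold and 2.34-fold, and the largest was 7.8-fold. The median fall was 2.07-fold, the middle 50% lay between 1.85-fold and 2.59-fold, and the largest was 7.49-fold. The smallest called changes were 1.53-fold and 1.52-fold. The call cuts off smaller folds in both lists, which enlarges the medians and favours their likeness. A change of 2-fold or more was shown by 149 risers and 184 fallers, and one of 4-fold or more by 11 and 15. Over all members 208 risers and 382 fallers reached 2-fold, where 2.24% and 4.11% of the tested probes did so. At 4-fold the counts were 14 and 44, against 0.151% and 0.473%. Of those 44 fallers, 15 were undetected on both cisplatin arrays and 14 on 1 of them, so their measured folds rest on signals at background.

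The transcripts called lower started from brighter signals. In control, the 328 fallers measured in both groups had a median log2 signal of 8.43, and the 317 risers one of 7.17, where the median of all members was 7.41. At 12 h of cisplatin the order was turned, with 7.18 for the fallers and 8.25 for the risers. The cause was not tested, and a faller had to start bright enough to remain detected. The arrays of a group gave like medians: the risers read 7.23 and 7.18 on control 1 and 2 and 8.34 and 8.19 on cisplatin 12 h replicate 1 and 2. The fallers read 8.42 and 8.47, then 7.07 and 7.29.

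Cisplatin 12 h replicate 1 lay further from control than replicate 2. This held for 208 of the 317 risers and 224 of the 328 fallers measured in both groups, with median differences between the 2 arrays of 0.15 and -0.17 on the log2 scale. It held also for 42 of the 52 gained and 82 of the 119 lost probes that were called. The lowest log2 signals that counted as detected were 5.73 on replicate 1 and 5.33 on replicate 2. The choice of gained probes by detection therefore favours a higher replicate 1, so their count is not separate support. For the lost probes the same limits favour the opposite lean. Replicate 1 detected 7853 probes and replicate 2 detected 9079, while control 1 and 2 detected 8581 and 9037. Median raw signals of the 4 arrays ran from 99.5 to 119, and a probe was read from a median of 41 to 42 beads. The part of these array differences in the calls was not tested.

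Without cisplatin 12 h replicate 1, the counts among probes measured in both groups became 109 higher and 130 lower. Without control 1 they became 101 and 140, and without control 2, 68 and 112. Without cisplatin 12 h replicate 2 they were 284 and 306. The lone array of a group was then assumed to vary like the other groups.

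Calls were spread over the whole range of signal. The members were divided into 4 classes of equal size by their mean log2 signal over all 16 arrays. In the dimmest class, from 4.73 to 6.30, 4.93% were called higher and 6.7% lower. In the second class the shares were 5.12% and 7.82%, and in the third 5.12% and 7.36%. In the brightest class, from 8.74 to 14.72, they were 3.07% and 4.56%. The fold changes narrowed as signal rose, with an SD of 0.633 in the dimmest and 0.446 in the brightest class. The typical standard error narrowed with it, from a median of 0.305 to 0.217. In each of the 4 classes more members were called lower than higher. These counts include the lost, gained and partly detected members, whose directions the membership rule favours. Among the 7211 probes measured in both groups, 317 were called higher and 328 lower.

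Suffixes of the probe names state which transcripts of a gene a probe detects. Of 7111 members for genes with a single transcript, 4.88% were called higher and 6.58% lower. Of 1022 members for all variants of a gene, the shares were 3.33% and 7.24%. Of 461 members for 1 of several variants, they were 2.39% and 5.64%. The variant-specific probes were dimmer, with a mean log2 signal of 7.22 against 7.70 for single transcripts and 7.76 for all variants. They were also more often lost, at 6.29% against 3.33% and 3.13%, and more often gained, at 2.17% against 1.41% and 0.783%. These shares are descriptions, and the difference between classes was not tested.

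The probe with the largest rise among those measured in both groups was GI_24475878-S. Its raw signals were 229.2 and 158.8 on the control arrays and 619.2 and 976.7 on the cisplatin 12 h arrays. On the normalised log2 scale these are 6.82 and 6.19 against 9.45 and 9.48, so the 2 pairs lie far apart and the treated arrays are nearly equal. The log2 difference was 2.96 with an SE of 0.385, a rise of 7.8-fold (limma adjusted p = 0.000363). Its log2 signal was 6.5 ± 0.44 (SD, n = 2) in control, 7.17 ± 0.52 at 3 h, 7.97 ± 0.05 at 6 h and 9.47 ± 0.02 at 12 h. The arrays at 3 h, 7.54 and 6.81, overlapped those of control, and those at 6 h, 7.93 and 8.01, did not. The step from 6 to 12 h was 2.83-fold and missed the threshold (limma adjusted p = 0.112), although it passed without either A0 12 h array (lowest adjusted p = 0.0454).

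The probe GI_28872718-S rose 5.97-fold, a log2 difference of 2.58 with an SE of 0.242 (limma adjusted p = 3.48e-05). Its log2 signals were 7.20 and 6.98 in control and 9.73 and 9.60 at 12 h of cisplatin. Most of its difference was already present earlier, with 8.48 and 8.26 at 3 h and 9.17 and 9.36 at 6 h. The difference between 12 h and 6 h was 0.40 (limma adjusted p = 0.601). That between 12 h and 3 h was 1.29 (adjusted p = 0.00602). Against control it stood at 1.28 at 3 h (adjusted p = 0.0461), a call lost without 14 of the 16 arrays in turn, with an adjusted p of up to 0.44. With A0 the same probe read 7.26 and 7.53 at 1 h, above both controls, and 6.29 and 5.73 at 3 h, below both. It was not detected on either array at 6 h or 12 h. At 12 h it was at least 15.5-fold higher with cisplatin than with A0 (the measured log2 difference of 4.41 had a limma adjusted p of 5.01e-07), and at least 2.6-fold lower than control with A0 (adjusted p = 0.000363 for the measured difference).

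The probe with the largest fall among those measured in both groups was GI_28610153-S, a bright transcript in control. Raw signals of 1824.1 and 2140.1 in control stood against 205.5 and 548.2 at 12 h of cisplatin. The log2 signals were 10.59 and 10.94 against 7.23 and 8.49, so the 2 treated arrays differ from each other but both lie far below control. The difference was -2.91 (SE 0.42, limma adjusted p = 0.00075), a fall of 7.49-fold. Without cisplatin 12 h replicate 1 it was -2.27 and without any of the 16 arrays in turn the adjusted p was at most 0.0149. The 3 h arrays read 9.16 and 9.44 and the 6 h arrays 8.83 and 7.72, all below both controls. The difference from control was -1.47 at 3 h (adjusted p = 0.159) and -2.49 at 6 h (adjusted p = 0.00725). Leaving out control 2 or cisplatin 6 h replicate 2 ended the 6 h call, and the adjusted p then reached 0.0811. From 6 to 12 h the difference was -0.42 (adjusted p = 0.779). With A0 at 12 h it read 10.39 and 11.07, which overlaps control.

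Of the transcripts lost below detection, GI_37545618-S had the largest bound on its fall. Its raw signals were 377.7 and 410.9 in control. The 3 h arrays of cisplatin read 190 and 273.2, the 6 h arrays 161.1 and 172.8 and the 12 h arrays 110.4 and 106.3. On the log2 scale these are 7.89 and 8.19, then 7.34 and 7.21, then 6.34 and 6.52, and at last 4.72 and 5.08. Each of the 4 pairs lies apart from the next, and neither 12 h array detected the probe. The fall from control was therefore 5.71-fold or more, a bound that was not itself tested. The measured log2 difference was -3.14 (limma adjusted p = 2.4e-05). To form a bound, each array without detection was given its lowest signal that counted as detected, or the probe's own value where that was higher, and the mean of these was set against the group that detected the probe. From 6 to 12 h it was at least 1.87-fold lower (adjusted p = 0.0193 for the measured -1.53). That call was lost without any 1 of the cisplatin 6 h or 12 h arrays, with an adjusted p of up to 0.196. All 8 A0 arrays detected it, with log2 signals between 7.17 and 8.06.

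The lost transcripts were mostly dim ones. The 298 probes seen on both control arrays and neither cisplatin 12 h array are 3.47% of the members and 3.61% of those detected on both control arrays. Their median log2 signal in control was 5.79 and the 90th percentile 6.49, while the lowest signals that counted as detected were 5.73 and 5.33 on the 2 cisplatin 12 h arrays. In 119 of them the control mean lay below 5.73. Their arrays did not overlap between the groups in 277 of 298, where 26.3% of all tested probes were separated in this direction. The choice of these probes by detection strongly favours such separation, so the 277 are not separate support for a fall. A bound on the fall of 2-fold or more could be given for 27 probes, all of which were called lower, and one of 4-fold or more for 4. For 28 probes no bound above 1 could be given, and the median bound of the other 270 was 1.24-fold. Loss from detection thus meant a well-measured fall for a small part of these probes.

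The 118 probes seen on both cisplatin 12 h arrays and neither control array are 1.37% of the members and 1.56% of those detected on both cisplatin arrays. Their median bound was 1.49-fold, 14 had a bound of 2-fold or more and 1 of 4-fold or more. The one with the largest bound rose at least 4.46-fold, from a log2 signal of 5.22 ± 0.23 to 7.56 ± 0.37 (SD, n = 2). The measured log2 difference was 2.34 (limma adjusted p = 0.000388). It stood at 6.06 at 3 h, with 1 array detecting it, and at 7.24 at 6 h, with both.

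Numbers lost and gained against the same 2 control arrays differed by group. With cisplatin, 196 probes were lost and 57 gained at 3 h. The numbers were 241 lost and 175 gained by 6 h, then 298 lost and 118 gained by 12 h. With A0 at 12 h, 667 were lost and 141 gained. Probes seen on both arrays numbered 8264 in control, 7528, 8076 and 7541 at 3, 6 and 12 h of cisplatin, and 7211 at 12 h of A0. Probes seen on 1 array only numbered 1850 at cisplatin 12 h and 1090 in control. The counts share the control arrays and move with how many probes each array detects. Without cisplatin 12 h replicate 2 the lost count was 984 and without control 1 it was 650, since 1 array then decides a group. Without control 2, 434 were lost. The gained count was 299 without cisplatin 12 h replicate 2, 185 without control 1 and 263 without control 2. Whether more probes were lost or gained also depended on the arrays and on the detection score. Without cisplatin 12 h replicate 1, 367 were lost and 642 gained, and with a detection score stricter than 0.99, 204 were lost and 241 gained.

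The time course of the lost and gained probes ran through 3 and 6 h. At 3 h of cisplatin 113 of the 298 lost probes were detected on both arrays and 72 on neither. By 6 h, 95 were detected on both arrays and 109 on neither. Their median log2 signal was 5.79 in control, 5.58 at 3 h, 5.34 at 6 h and 4.99 at 12 h. With A0 at 12 h the median was 5.59, and 94 of the 298 were detected on both arrays and 119 on neither. Of the 118 gained probes, 24 were detected on both arrays at 3 h of cisplatin and 67 at 6 h, and the median went from 5.09 in control to 5.38, 5.74 and 5.98. With A0 at 12 h it was 5.21, and 29 of the 118 were detected on both arrays. All of these probes were chosen by their control and 12 h arrays, so the end points follow from the choice. The 3 and 6 h arrays had no part in it. Choice by the control arrays nevertheless favours a shift away from control in every other group. At 1 h of A0, 139 of the lost probes were detected on both arrays, with a median of 5.71. Of the gained probes, 29 were detected on both arrays at 1 h of A0, with a median of 5.28.

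The same order held for members measured in both groups. The median log2 difference of the 317 risers from control was 0.34 at 3 h, 0.75 at 6 h and 0.97 at 12 h. That of the 328 fallers was -0.26, -0.67 and -1.05. All 3 times use the same control arrays, which ties the values together. The 12 h value is enlarged by the choice of probes, and the control arrays carry part of this choice into the 3 and 6 h values. With A0, the median difference of the risers from control was 0.13 at 1 h and 0.21 at 3 h. That of the fallers was -0.07 and -0.14. Over all tested probes the medians were -0.02, -0.01 and 0.00. On the log2 scale the median level of the risers was 7.60 at 3 h of cisplatin and 7.98 at 6 h, and that of the fallers 8.15 and then 7.75. With A0 at 12 h the median level was 7.46 for the risers and 8.09 for the fallers. In both lists this is closer to control than the cisplatin 12 h medians, which the choice of the lists favours.

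Set directly against 6 h of cisplatin, which leaves the controls out of the difference, 68 members differed, 13 higher at 12 h and 55 lower, where 0.742% of the tested probes were called, 0.14% higher and 0.603% lower. An unadjusted p under 0.05 was reached by 966 members, or 11.2%, and the share over all tested probes is not given here. Unchanged probes also reach such a p, at a rate of 0.05. How many transcripts moved between 6 and 12 h cannot be read from either count. Of the 55 lower members, 32 were detected on all arrays of both times, with a median fall of 2.36-fold and a largest of 3.3-fold, and 7 were undetected on both 12 h arrays. Of the 13 higher ones, 6 were detected on all arrays of both times, with a median rise of 2.01-fold. The 328 fallers measured in both groups held 29 of the members lower than at 6 h, and their difference between 12 h and 6 h had a median of -0.45 with the middle 50% from -0.71 to -0.22. The 317 risers held 5 of the members higher than at 6 h, with a median of 0.28 and the middle 50% from 0.05 to 0.50. The 12 h arrays enter both the choice of these lists and this difference.

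The counts between 6 and 12 h were fragile. Over all tested probes they were 13 higher and 56 lower. Leaving out cisplatin 6 h replicate 1 gave 1 higher and 2 lower, and leaving out its partner gave 2 higher and 18 lower. Leaving out cisplatin 12 h replicate 1 gave 1 higher and 14 lower, and leaving out its partner gave 3 higher and 27 lower. Without either control array 35 were lower, and without either A0 1 h array 31.

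Set directly against 12 h of A0, 2237 members differed, 1295 higher with cisplatin and 942 lower, against 25.9% of the tested probes in all, 14.1% higher and 11.8% lower. Of the higher members 764 were detected on all arrays of both groups, with a median difference of 1.96-fold, and 390 were undetected on both A0 arrays. Of the lower members 684 were detected on all arrays of both groups, with a median of 1.99-fold and a largest of 53-fold. Among the 317 risers measured in cisplatin and control, 184 were higher with cisplatin than with A0, 8 lower and the rest not called. Among the 328 fallers, 201 were lower with cisplatin than with A0, 6 higher and the rest not called. The median difference between the drugs was 0.85 for the risers and -0.79 for the fallers. Probes seen on both arrays of A0 alone are not members, which favours higher calls among the members. As before, the cisplatin 12 h arrays enter both the choice and the difference. The balance of directions turned with the scaling. Over all tested probes the counts were 1310 higher and 1099 lower, but 979 higher and 1316 lower with 75th percentile centring, and 1044 higher and 1548 lower with the deposited processed values. The counts also became 814 higher and 632 lower when A0 12 h replicate 2 was left out. When cisplatin 12 h replicate 1 was left out they became 818 higher and 688 lower.

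The membership rule has a threshold on the detection score. The members nearest to it had a deciding score of 0.991 and the nearest probes outside one of 0.9897. Within 0.005 of the threshold, 566 probes lay inside and 255 outside.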

How the data were processed

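Bead array files of 16 samples were used. Per the file headers, each holds 1 mean bead intensity per probe, the bead number as a count, and a detection score given as a fraction from 0 to 1. The submitters' processing notes name BeadStudio 1.5.1.3 for these deposited files. The authors' deposited value table holds processed intensity, with a normalisation not given in the sources used here, and was tried as a second source. Background correction, an offset of 16, quantile normalisation and log2 were applied by the neqc function (limma 3.58.1, R 4.3.3). One model over all 16 arrays gave each of 8 groups a mean (8 residual and 5.7 prior degrees of freedom). Probes with a detection score of at least 0.99 on both arrays of a group, 9293 in all, were tested, and p-values were adjusted over them at 0.05 (Benjamini-Hochberg). The array number limits precision. The fit was tested on simulated data. Named probes were, of those called with arrays not overlapping, the first 2 risers and the first faller detected on all 4 arrays, and the lost probe with the largest bound. Gene lists and cell type markers were prepared but not used, since no probe could be named. Members, lists and tests were chosen with earlier results of these data known. Alternatives covered background, scaling, filter, fold threshold, variance, array weights, a replicate block, a model of only the compared groups and leave-one-out fits. The counts among probes detected on all 4 arrays under these alternatives were added after seeing the data.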

Additional observations from a re-analysis of the deposited data

Results flagged for a closer look

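A direct test found a difference between cisplatin 12 h and cisplatin 6 h at 68 members and between cisplatin 12 h and A0 12 h at 2237 members. Of the named probes, GI_24475878-S was 3.58 higher on the log2 scale with cisplatin than with A0 at 12 h (limma adjusted p = 3.8e-05), where 1 of 2 A0 arrays detected it. GI_28872718-S was a measured 4.41 higher with cisplatin than with A0, where neither A0 12 h array detected it. GI_28610153-S differed by -2.87 between cisplatin and A0 at 12 h (limma adjusted p = 0.000304). GI_37545618-S, undetected at cisplatin 12 h, differed by a measured -1.53 from cisplatin 6 h and by -2.45 from A0 12 h, where the bound is at least 3.54-fold lower with cisplatin (limma adjusted p = 3.93e-05 for the measured value). The comparisons with A0 kept their call with each of the 16 arrays left out in turn.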

How the results depend on the processing

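Under the scaling, variance and block alternatives the calls of the 4 named probes against control held, and 267 of the 392 higher and 428 of the 568 lower members were called in the same direction under all 4 of 75th percentile centring, the deposited processed values, median background subtraction and the replicate block. With only the arrays of the compared groups, the tested probes higher than control fell to 240, those measured on all 4 arrays to 173 higher and 207 lower, the 12 h against 6 h counts to 6 and 12, and the cisplatin against A0 counts to 837 and 713. From 6 to 12 h, higher calls were 8 with 75th percentile centring and 5 with the deposited processed values, calls with array weights were 5 higher and 29 lower, and 85 were lower with a trended and robust variance. With the replicate number as a block they were 22 higher and 91 lower. The labels do not say that a number marks a shared culture, and with 2 numbers the pairing could not be settled. The deviations of same-numbered control and cisplatin 12 h arrays correlated at -0.089, but those of 26 of all 28 pairs of groups correlated above 0, from -0.273 to 0.387 over the 28, and replicate 2 detected more probes than replicate 1 in 8 of 8 groups. Against control, the block gave 486 higher and 667 lower tested probes. With a laxer detection score of 0.95, 376 probes were lost and 184 gained, and with a stricter one 204 were lost and 241 gained. Cisplatin against A0 turned from 1310 higher and 1099 lower to 979 and 1316 with 75th percentile centring and to 1044 and 1548 with the deposited processed values. With each array left out, tested probes higher than control ran from 90 to 444 and lower from 202 to 600, and those measured on all 4 arrays from 68 to 359 and 112 to 346. The 6 to 12 h counts ran from 1 to 16 and 2 to 55, and the A0 counts from 814 to 1364 and 632 to 1144. With each of the 4 control and cisplatin 12 h arrays left out, the lost count ran from 367 to 984, the gained count from 185 to 642, and the spread of fold changes from 0.511 to 0.578. A group left with 1 array loses power. Signal over background limits all values of undetected probes to bounds.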
